A study of Homo sapiens with 7 samples.

Results

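The IGF and insulin receptor axis was followed through 10 genes of the deposited table, which lists 58174 genes. They were taken by symbol and comprise the receptors IGF1R, IGF2R and INSR, the receptor substrates IRS1 and IRS2, the IGF-binding proteins IGFBP1, IGFBP2, IGFBP3 and IGFBP4, and the acid-labile subunit IGFALS. All 10 were found, 7 of them reached a mean of 1 FPKM (fragments scaled to gene length and to library size) over all libraries and were tested, and IRS2, IGFBP1 and IGFALS lay below that limit. Total RNA came from Huh-7 cells, an established line derived from a hepatocellular carcinoma, harvested 72 h after transfection of either control siRNA (siC, 3 libraries) or siRNAs against IGF2BP1 (siIGF2BP1, 4 libraries). IGF2BP1 is an mRNA-binding protein, and the question was which transcripts change upon its depletion. Both groups were transfected, no untransfected cells were among the samples, and the depletion left part of the IGF2BP1 transcript in place. No label says whether replicates were separate cultures, so the spread between libraries may be technical.

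Insulin and the insulin-like growth factors IGF1 and IGF2 signal through IGF1R and INSR, closely related receptor tyrosine kinases that phosphorylate the docking proteins IRS1 and IRS2 and thereby engage the PI3K and AKT pathway. IGF2R, the cation-independent mannose 6-phosphate receptor, takes IGF2 up for degradation in lysosomes and sorts lysosomal enzymes. IGF-binding proteins hold the ligands in the extracellular fluid and are in large part made by the liver, and IGFALS joins IGF and IGFBP3 or IGFBP5 in a circulating complex.

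IGF2BP1 is studied as a factor that shields mRNAs from microRNAs, and the 3'UTRs of the 10 genes were therefore searched for the match to the seed (bases 2 to 8) of the let-7 family and of miR-122, the microRNA best known from hepatocytes. The mature sequences from RefSeq are shown with the seed in capitals, and the let-7a-5p seed is shared by 11 mature microRNAs.
hsa-let-7a-5p: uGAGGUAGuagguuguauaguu
hsa-miR-122-5p: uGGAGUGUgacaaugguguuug

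In the transcript sense, the let-7 match CTACCTC occurred 2 times in the IGF1R 3'UTR and once each in those of IGF2R, INSR and IRS2. The miR-122 match ACACTCC occurred once each in IGF1R and IGFBP4. The sites are printed below, and the capitals mark the match within genome build GRCh38 (GENCODE annotation). Whether they bear on a change of any of these transcripts was not tested.
IGF1R, let-7, chr15:98960047-98960069, plus strand: ccccaaacatttatCTACCTCac
IGF1R, let-7, chr15:98964089-98964111, plus strand: ttgccagagtttgtCTACCTCtg
IGF1R, miR-122, chr15:98958125-98958147, plus strand: gacacgctggcgacACACTCCgt
IGF2R, let-7, chr6:160111270-160111292, plus strand: gtcagccccttcttCTACCTCtt
INSR, let-7, chr19:7114655-7114677, minus strand: tttttcagcacagtCTACCTCag
IRS2, let-7, chr13:109755843-109755865, minus strand: aaacgaccacagtcCTACCTCag
IGFBP4, miR-122, chr17:40457006-40457028, plus strand: tttggcatgtggagACACTCCta

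Neither match was found in the 3'UTRs of IRS1, IGFBP1, IGFBP2, IGFBP3 or IGFALS. Only the transcript that Ensembl marks as canonical was searched for each gene, so other isoforms may differ. The 3'UTR measured 7088 bases in IGF1R, 6420 in IGF2R, 4960 in IRS1, 4791 in INSR and 3609 in IRS2, against a median of 1337 bases over 10608 protein-coding genes tested. Among the binding proteins it was shorter, from 332 bases in IGFBP2 to 1605 in IGFBP3. The let-7 match occurred in 11.2% of those 10608 3'UTRs and in 35.6% of the 862 that measured at least 5000 bases, and the miR-122 match in 8.38% and 26.1%. A match is a description of letters, and binding was not measured here. By small RNA-seq, the authors reported less let-7 and more miR-122 in Huh-7 cells than in an ovarian cancer line.

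The siC libraries held 13983987 to 33212205 reads on genes and the siIGF2BP1 libraries 12826550 to 18248256. The targeted IGF2BP1 measured 81.9, 80.4 and 84.4 FPKM in siC replicates 1 to 3 and 15.6, 15.7, 16.6 and 15.3 FPKM in siIGF2BP1 replicates 1 to 4, so that 19.2% of the transcript remained (log2 change -2.37, SE 0.0558). The hepatocyte markers summed to 6366 to 8166 FPKM in siC and 7549 to 7786 FPKM in siIGF2BP1, with none of 10 past the threshold. The largest parts were AFP (mean 3151 FPKM in siC and 2740 in siIGF2BP1) and ALB (1814 and 1993). Of the 10, 4 had negative and 6 positive log2 changes, and 3 were lower and 1 higher at an unadjusted limma p below 0.05. APOB (594 and 476) and TTR (23.0 and 16.0) were lower and TF was higher (299 and 500). Markers of fibroblasts summed to 9.21 to 9.65 against 7.94 to 8.74 FPKM. Those of endothelium summed to 2.59 to 3.07 against 2.86 to 3.30 FPKM. The endothelial sum was nearly all PECAM1 (2.81 against 3.01 FPKM in the mean). VWF and CDH5 had at most 4 reads in any library, and KDR was at 0. The fibroblast sum was mostly LUM (7.47 against 5.70 FPKM in the mean), while the means of COL1A2, COL3A1 and PDGFRB were higher in siIGF2BP1. Leukocyte markers summed to 0.462 to 1.29 against 2.07 to 2.69 FPKM, nearly all from CD14, while PTPRC, CD68 and CD3E had at most 2 reads in any library. Their part in the results was not tested. Replicate 3 of siC stood apart from the other libraries, with Pearson r of 0.916 and 0.929 to siC replicates 1 and 2, which correlated at 0.971 with each other. Without it the IGF2BP1 change was -2.35 (limma adjusted p = 1.35e-05), and each call among the 10 genes is given with and without it.

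Upon depletion, IGF1R fell, IGFBP3 and IGFBP4 rose, and the other 4 genes tested (IGF2R, INSR, IRS1 and IGFBP2) did not pass an adjusted p of 0.01. These are 3 of 7 genes, while 3.93% of all 14839 genes tested passed, 2.28% in the lower and 1.65% in the higher direction. The genes, like the pathway lists below, were chosen with earlier results of these data known, so such rates are no independent comparison. The median log2 change was 0.08 over the 7 genes and -0.02 over all genes tested. The groups did not overlap for these 3 genes, as for 27% of all genes tested, nor for IRS2 below the limit of 1 FPKM. In a fit without that limit none of IRS2, IGFBP1 and IGFALS passed, beside 1.03% of all genes above 0 in any library (0.6% lower and 0.425% higher).

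**Figure D1:**
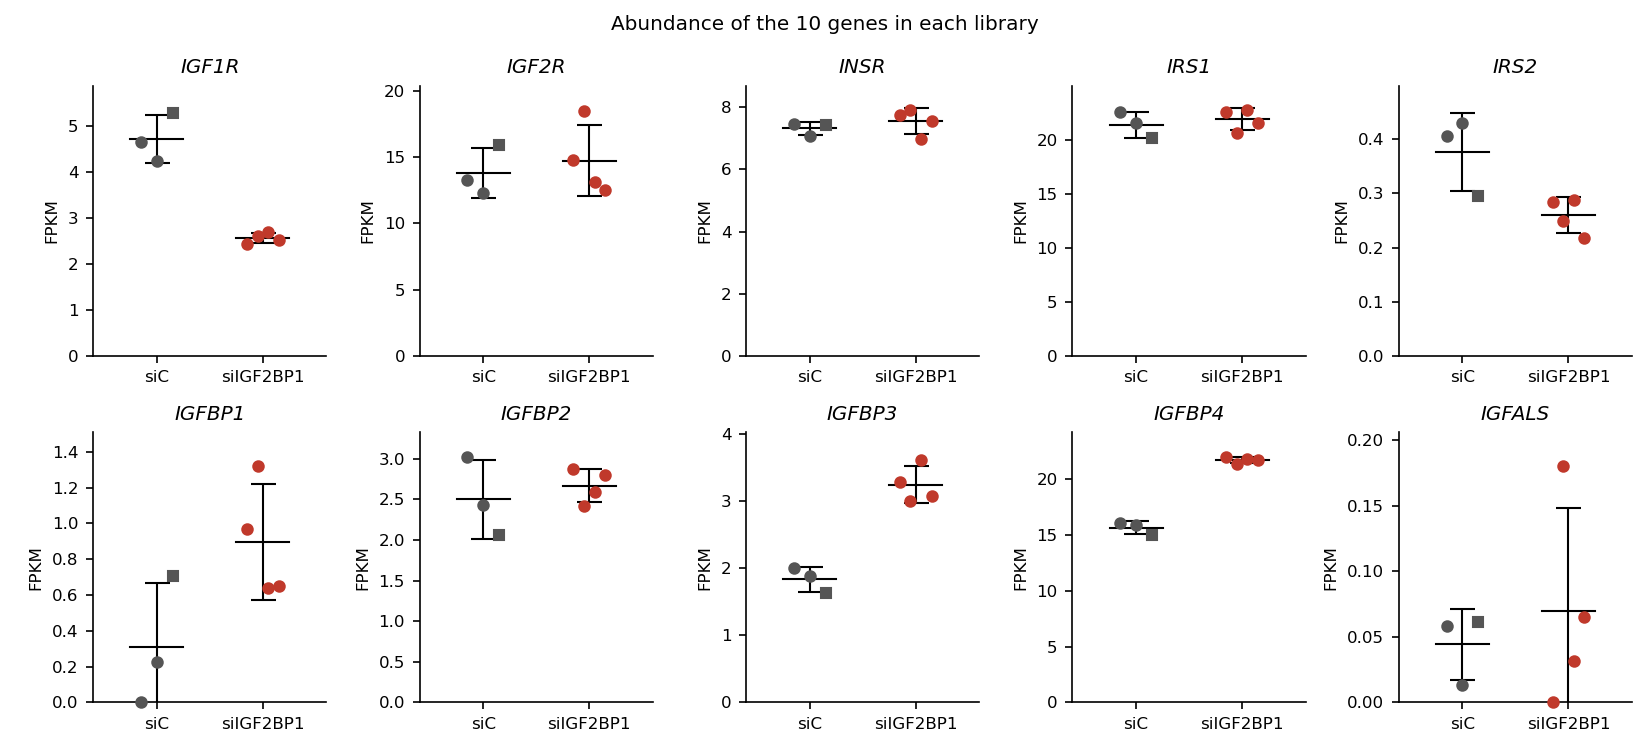
Abundance in FPKM (vertical axes, linear from 0, each gene with its own scale) in the siC and siIGF2BP1 groups; points are libraries, the square is siC replicate 3, and lines show mean and SD, with the SD of IGFBP1 in siC and of IGFALS in siIGF2BP1 cut off at 0. The siIGF2BP1 libraries lie below all siC libraries for IGF1R (2.43 to 2.69 against 4.22 to 5.27 FPKM) and above all of them for IGFBP3 and IGFBP4.

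In control cells, IRS1 had the highest level per length of the 10 genes with 21.4 ± 1.21 FPKM (SD, n = 3). It was followed by IGFBP4 with 15.6 ± 0.590 and IGF2R with 13.8 ± 1.87 FPKM, whose libraries overlapped. INSR stood at 7.32 ± 0.205, IGF1R at 4.71 ± 0.527, IGFBP2 at 2.50 ± 0.484 and IGFBP3 at 1.84 ± 0.187 FPKM, and no libraries of neighbours in this order overlapped. IRS2 with 0.377 ± 0.0720 and IGFBP1 with 0.310 ± 0.359 FPKM overlapped, and the mean of IGFALS was lowest with 0.0443 ± 0.0270 FPKM. In siIGF2BP1 libraries the levels of IRS1 (20.6 to 22.8 FPKM) and IGFBP4 (21.3 to 21.9 FPKM) overlapped, and IGFBP3 (3.01 to 3.62 FPKM) exceeded both IGF1R and IGFBP2 in every library.

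IGF1R (ENSG00000140443, chromosome 15, 98648539 to 98964530, plus strand, 21 exons) encodes the tyrosine kinase receptor for IGF1 and IGF2. Its level was 4.63, 4.22 and 5.27 FPKM in the siC libraries and 2.43, 2.61, 2.69 and 2.51 FPKM in the siIGF2BP1 libraries. The highest depleted library thus lay below the lowest control, and the 4 depleted libraries were close to each other. The mean fell from 4.71 ± 0.527 (SD, n = 3) to 2.56 ± 0.114 FPKM (SD, n = 4), or 54.5% of siC. On the log2(FPKM + 0.1) scale this was a change of -0.85 (SE 0.0961, 95% interval -1.07 to -0.62, limma adjusted p = 0.00288). The values rest on 441 to 1826 reads per library. In RNA from a whole culture, fewer cells that express a gene and less RNA per cell cannot be told apart. Without siC replicate 3 the change was -0.76 (limma adjusted p = 0.00220), and without any one of the other 6 libraries the adjusted p was 0.0101 to 0.0165, which missed the threshold in each case.

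INSR (ENSG00000171105, chromosome 19, 7112255 to 7294414, minus strand, 22 exons), the insulin receptor and the closest relative of IGF1R, gave no such call. It measured 7.46, 7.08 and 7.41 FPKM in siC and 7.76, 7.92, 6.96 and 7.54 FPKM in siIGF2BP1. The ranges overlapped, and the log2 change of 0.04 had a 95% interval of -0.12 to 0.20 (limma adjusted p = 0.754). The ratio of IGF1R to INSR within a library, which tests the difference between the receptors directly, was 0.621, 0.596 and 0.710 in siC and 0.313, 0.330, 0.387 and 0.334 in siIGF2BP1. The mean ratio was 0.642 ± 0.0603 (SD, n = 3) against 0.341 ± 0.0318 (SD, n = 4), a log2 difference of -0.91 (exact permutation test, two-sided, p = 0.0571). That is the smallest p which 3 against 4 libraries allow, so this test cannot reach 0.05.

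IGF2R (ENSG00000197081, chromosome 6, 159969082 to 160113507, plus strand, 48 exons), the scavenger of IGF2, varied most of the receptors. Its level was 13.2, 12.3 and 15.9 FPKM in siC and 14.8, 18.5, 13.1 and 12.5 FPKM in siIGF2BP1. The highest value in each group came from 1 library, siC replicate 3 and siIGF2BP1 replicate 2, and the groups overlapped. The log2 change was 0.08 with a 95% interval of -0.28 to 0.44 (limma adjusted p = 0.790), and its sign turned without siIGF2BP1 replicate 2 (-0.03). The pseudogene CHP1P2 shares 571 bases, or 2.53%, of the IGF2R exons on the same strand. How reads from these shared bases were counted is not given.

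**Figure D2:**
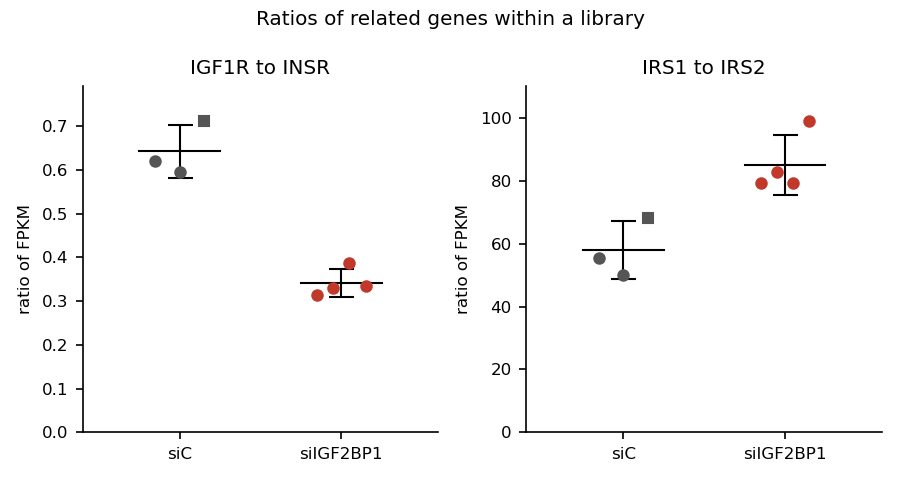
Ratio of FPKM values within each library (vertical axes, linear from 0) for IGF1R to INSR and IRS1 to IRS2; points are libraries, the square is siC replicate 3, and lines show mean and SD. The IGF1R to INSR ratio averages 0.642 in siC and 0.341 in siIGF2BP1 and the IRS1 to IRS2 ratio lies at 58.0 in siC and 85.1 in siIGF2BP1, with no overlap of the groups in either.

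IRS1 (ENSG00000169047, chromosome 2, 226731312 to 226799820, minus strand, 2 exons), the main docking protein for both kinases, had the smallest change of the 7 genes tested. It measured 22.5, 21.5 and 20.1 FPKM in siC and 22.6, 20.6, 22.8 and 21.6 FPKM in siIGF2BP1. The log2 change was 0.03 with a 95% interval of -0.12 to 0.19 (limma adjusted p = 0.805), and it was -0.0092 without siC replicate 3.

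IRS2 (ENSG00000185950, chromosome 13, 109752695 to 109786583, minus strand, 2 exons), the docking protein known for its part in hepatic insulin signaling, was barely expressed. It measured 0.405, 0.430 and 0.295 FPKM in siC, from 72, 112 and 33 reads, and 0.285, 0.249, 0.287 and 0.218 FPKM in siIGF2BP1, from 42, 38, 31 and 23 reads. All depleted libraries lay below the controls, closely so for siC replicate 3, and the mean was 0.377 ± 0.0720 (SD, n = 3) against 0.260 ± 0.0331 FPKM (SD, n = 4). Groups ordered in this way without overlap made up 8.02% of all genes above 0 in any library. In the fit without a limit on low values the log2 change was -0.40 (limma adjusted p = 0.529), and voom on the recovered reads gave -0.56 (limma adjusted p = 0.170), and neither passed the threshold. The ratio of IRS1 to IRS2 was 55.6, 50.1 and 68.3 in siC and 79.3, 82.6, 79.2 and 99.1 in siIGF2BP1. Its means were 58.0 ± 9.34 (SD, n = 3) and 85.1 ± 9.49 (SD, n = 4), with a log2 difference of 0.56 (exact permutation test, two-sided, p = 0.0571, again the smallest possible). With 1 FPKM added to each value the log2 difference was 0.16, since IRS2 is low.

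IGFBP4 (ENSG00000141753, chromosome 17, 40443450 to 40457725, plus strand, 4 exons), an inhibitory binding protein that the protease PAPPA cleaves, was the most abundant of the binding proteins. It measured 16.1, 15.9 and 14.96 FPKM in siC and 21.9, 21.3, 21.8 and 21.6 FPKM in siIGF2BP1. The groups were far apart compared with their spread, and the SE of the change was the smallest of the 7 genes tested. The mean rose from 15.6 ± 0.590 (SD, n = 3) to 21.7 ± 0.276 FPKM (SD, n = 4), 1.39-fold, with a log2 change of 0.47 (SE 0.0532, 95% interval 0.34 to 0.59, limma adjusted p = 0.00289). Without siC replicate 3 it was 0.44 (limma adjusted p = 0.000955), and without any one of the other libraries the adjusted p was 0.0125 to 0.0198.

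IGFBP3 (ENSG00000146674, chromosome 7, 45912245 to 45921874, minus strand, 5 exons), the main carrier of IGF in serum, had the largest relative rise among the members tested. Its level was 2.004, 1.88 and 1.64 FPKM in siC and 3.28, 3.01, 3.62 and 3.08 FPKM in siIGF2BP1, from 103 to 275 reads. Every depleted library lay above the highest control. The mean rose from 1.84 ± 0.187 (SD, n = 3) to 3.25 ± 0.271 FPKM (SD, n = 4), 1.77-fold, with a log2 change of 0.79 (SE 0.111, 95% interval 0.53 to 1.05, limma adjusted p = 0.00634). Without siC replicate 3 the change was 0.71 (limma adjusted p = 0.00540), without any one of the others the adjusted p was 0.0180 to 0.0316, and without the limit on low values it was 0.0145.

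IGFBP1 (ENSG00000146678, chromosome 7, 45888360 to 45893660, plus strand, 4 exons), a liver-made binding protein that insulin represses, lies 18584 bases from IGFBP3 on the other strand. It was listed at 0 in siC replicate 1, where the limit that a count of 0 allows is 0.0831 FPKM, and measured 0.227 and 0.703 FPKM in replicates 2 and 3. In siIGF2BP1 it measured 0.968, 1.32, 0.639 and 0.652 FPKM, from 29, 41, 14 and 14 reads against 0, 12 and 16 in siC. The control replicates differed widely and siC replicate 3 lay within the range of depleted libraries. The log2 change without a limit on low values was 1.69 (limma adjusted p = 0.290), and voom gave 2.89 (limma adjusted p = 0.0810). Leaving out 1 library at a time gave changes from 0.90 to 2.41, with the highest without siC replicate 3 (limma adjusted p = 0.0550).

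IGFBP2 (ENSG00000115457, chromosome 2, 216632828 to 216664436, plus strand, 4 exons), another liver-made binding protein, measured 3.02, 2.43 and 2.06 FPKM in siC and 2.87, 2.42, 2.60 and 2.80 FPKM in siIGF2BP1. The depleted libraries all lay within the range of the controls. The log2 change was 0.10 with a 95% interval of -0.23 to 0.44 (limma adjusted p = 0.711), and it was -0.02 without siC replicate 3.

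The binding proteins IGFBP1 to IGFBP7 together measured 22.9, 22.5 and 21.6 FPKM in siC and 30.8, 29.8, 29.9 and 29.6 FPKM in siIGF2BP1. The sum was 22.3 ± 0.667 (SD, n = 3) against 30.002 ± 0.534 FPKM (SD, n = 4), without overlap, and was described without a test. IGFBP4 made up 69.9% ± 0.790 of it in siC and 72.2% ± 0.964 in siIGF2BP1, and IGFBP3 8.22% ± 0.595 and 10.8% ± 0.885. The share of IGFBP2 was 11.2% and 8.90%, although its own level did not pass the test.

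**Figure D3:**
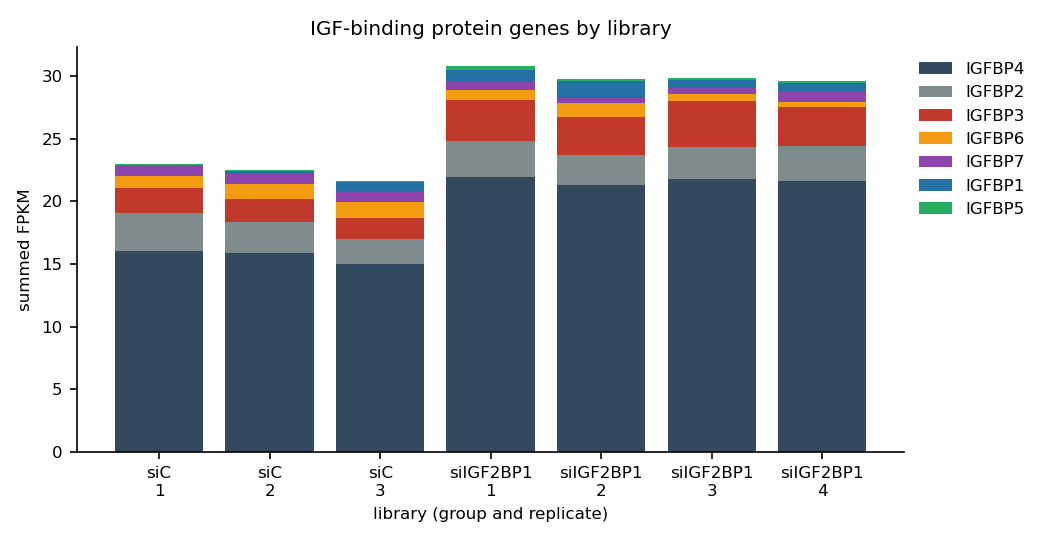
Summed FPKM of IGFBP1 to IGFBP7 (vertical axis, from 0) in each library (horizontal axis, by group and replicate), with colours for the genes. The stacks reach 21.6 to 22.9 FPKM in siC and 29.6 to 30.8 FPKM in siIGF2BP1, and IGFBP4 forms most of each stack.

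The family members IGFBP5, IGFBP6 and IGFBP7, which were not among the 10 genes, had means below 1 FPKM over all libraries. IGFBP5 measured 0.0782, 0.0678 and 0.102 FPKM in siC and 0.266, 0.141, 0.164 and 0.179 FPKM in siIGF2BP1, from 9 to 31 reads. Higher groups without overlap, as here, made up 8.13% of genes above 0 in any library (log2 change 0.64, limma adjusted p = 0.243 without a limit on low values). IGFBP6 had a mean of 1.1402 ± 0.170 (SD, n = 3) against 0.750 ± 0.323 FPKM (SD, n = 4), and IGFBP7 one of 0.840 ± 0.0221 (SD, n = 3) against 0.595 ± 0.193 FPKM (SD, n = 4). Both had overlapping groups and limma adjusted p-values of 0.446 and 0.471. IGFBPL1 had 0 to 3 reads per library.

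IGFALS (ENSG00000099769, chromosome 16, 1790413 to 1794971, minus strand, 2 exons), which healthy hepatocytes secrete, was near the limit of detection. It had 3, 1 and 2 reads in the siC libraries and 0, 8, 1 and 2 reads in the siIGF2BP1 libraries. No difference could be read at this depth (log2 change 0.14 without a limit on low values, limma adjusted p = 0.876), and SPSB3 shares 64 bases, or 2.74%, of its exons on the same strand.

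Of the ligands, only IGF2 was expressed at a level that could be tested. IGF2 (ENSG00000167244, chromosome 11, 2129112 to 2158391, minus strand), the fetal growth factor after which the IGF2BP family is named, measured 42.1, 46.9 and 31.3 FPKM in siC and 63.0, 63.2, 71.5 and 66.1 FPKM in siIGF2BP1. All depleted libraries lay above the controls, of which siC replicate 3 was lowest. The mean was 40.1 ± 8.02 (SD, n = 3) against 65.9 ± 3.95 FPKM (SD, n = 4), a log2 change of 0.73 (95% interval 0.41 to 1.06) that missed the threshold (limma adjusted p = 0.0177). Without siC replicate 3 it was 0.57 (limma adjusted p = 0.00339), and the threshold was passed under 5 of 10 alternatives that kept all libraries. The readthrough gene INS-IGF2 shares 1460 bases, or 20.4%, of the IGF2 exons on the same strand and was listed at 0, and IGF2-AS overlaps 333 bases on the other strand with a mean of 0.620 FPKM. The gene model ENSG00000284779 of the GENCODE annotation shares 2711 bases, or 37.9%, on the same strand, and no value of it was used here. The IGF2 values are uncertain to the extent of these overlaps. IGF1 had 1, 2 and 3 reads in siC and 12, 0, 3 and 8 in siIGF2BP1, and INS was listed at 0 in all 7 libraries.

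**Figure D4:**
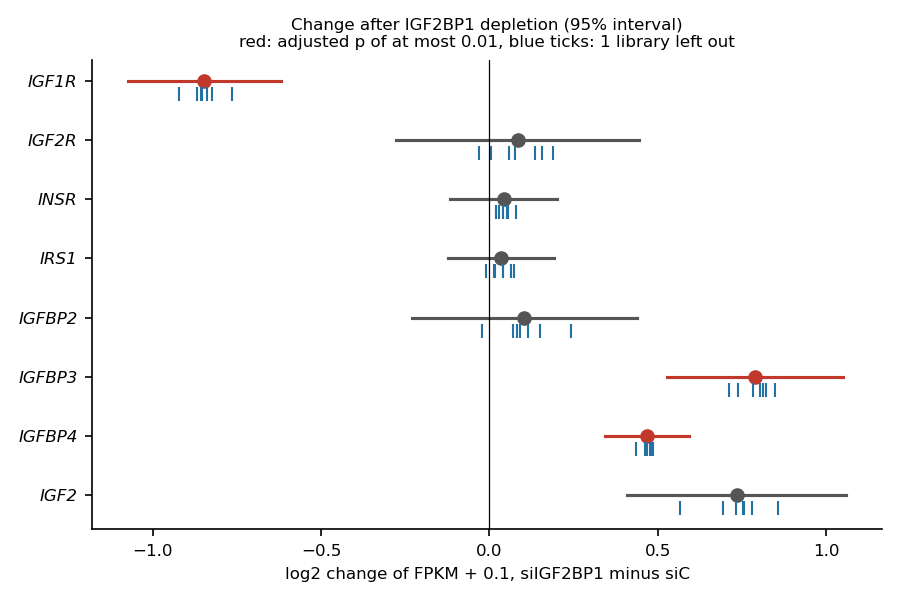
Change of log2(FPKM + 0.1), siIGF2BP1 minus siC (horizontal axis), for the 7 genes tested and the ligand IGF2, with dots for the estimate, bars for the 95% interval and blue ticks for fits with 1 library left out. IGF1R lies at -0.85, IGFBP3 at 0.79 and IGFBP4 at 0.47 (red, adjusted p of at most 0.01), while the intervals of IGF2R, INSR, IRS1 and IGFBP2 include 0.

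The surrounding pathway was described by 82 further genes in 9 lists, of which 59 were tested. Only 4 passed the threshold, 2 lower and 2 higher (6.78% of those tested, beside 3.93% of all genes), and the median log2 change was -0.0041. At an unadjusted p below 0.05 the numbers were 12 lower and 7 higher, where 25.9% of all genes tested had such a p. Each of the 4 calls held without siC replicate 3 and missed the threshold without any one of the other 6 libraries.

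In the growth hormone axis, which drives hepatic IGF1 and IGFALS expression, 1 of 3 genes tested passed. STAT5B, a transcription factor activated by the growth hormone receptor, measured 6.42, 6.04 and 5.87 FPKM in siC and 3.65, 4.10, 3.84 and 4.13 FPKM in siIGF2BP1. It fell without overlap of the groups (log2 change -0.62, limma adjusted p = 0.00344). GHR and JAK2 did not pass, with log2 changes of 0.32 and -0.35.

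Among the receptor-proximal adaptors and brakes, 1 of 14 genes tested passed. SOCS3, which blocks cytokine and insulin receptor signaling, measured 1.139, 1.20 and 0.930 FPKM in siC and 2.85, 2.09, 2.29 and 2.56 FPKM in siIGF2BP1. It rose in all depleted libraries above the controls (log2 change 1.10, limma adjusted p = 0.00649).

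Of the PI3K and AKT list, none of 12 genes tested passed (2 lower and 0 higher at an unadjusted p below 0.05). The smallest p was that of GSK3B, a kinase that AKT inhibits, whose log2 value differed by -0.37 (limma adjusted p = 0.0469). Of the 14 genes of the TSC and mTOR list, 1 passed. DEPTOR, an inhibitory subunit of the mTOR complexes, measured 2.03, 2.26 and 3.08 FPKM in siC and 5.83, 5.82, 4.69 and 5.02 FPKM in siIGF2BP1. The groups lay well apart (log2 change 1.11, limma adjusted p = 0.00638).

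Among FOXO factors and insulin-regulated liver genes, 1 of 7 tested passed. FOXO3, a transcription factor that AKT keeps out of the nucleus, measured 9.22, 9.83 and 11.1 FPKM in siC and 7.22, 7.003, 6.28 and 6.40 FPKM in siIGF2BP1. It fell in every depleted library below the controls (log2 change -0.57, limma adjusted p = 0.00904).

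No gene passed among the 7 of mannose 6-phosphate sorting, the pathway that IGF2R serves in lysosome formation (1 lower and 1 higher at an unadjusted p below 0.05). NAGPA, which uncovers the mannose 6-phosphate signal, had the smallest p (log2 change 0.43, limma adjusted p = 0.0378). Of the IGFBP proteases and their inhibitors only STC2, a stanniocalcin that inhibits PAPPA, was tested. Its mean was 5.98 ± 1.09 (SD, n = 3) against 9.95 ± 0.407 FPKM (SD, n = 4), and it missed the threshold (log2 change 0.74, limma adjusted p = 0.0119). STC2 passed without siC replicate 3 (0.59, limma adjusted p = 0.00196) and, like IGF2, under 5 of 10 alternatives that kept all libraries.

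**Figure D5:**
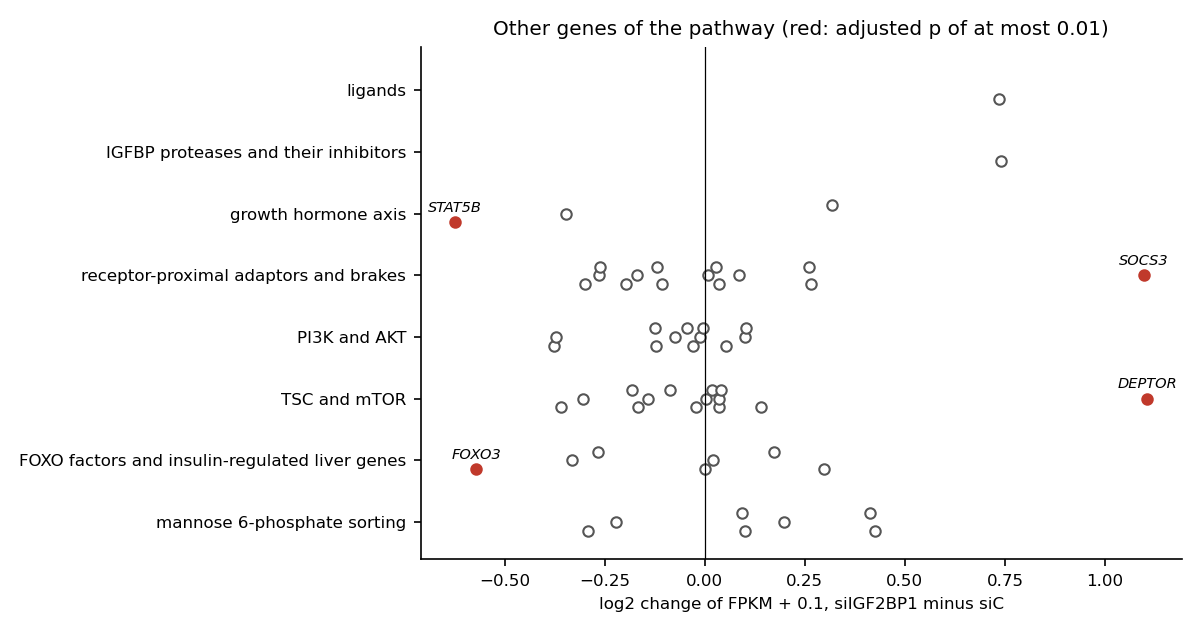
Change of log2(FPKM + 0.1), siIGF2BP1 minus siC (horizontal axis), of the 59 further pathway genes tested, by list (vertical axis, with small vertical offsets for legibility). Filled red points have an adjusted p of at most 0.01: STAT5B and FOXO3 on the left, SOCS3 and DEPTOR on the right.

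The genes with a pattern most like that of each called member were sought by Pearson correlation over the 7 libraries among 10671 other protein-coding genes tested, as a description, since the points share library and group. For IGF1R these were AP3S2 (r = 0.996), the mitochondrial transcription factor TFAM (r = 0.994) and OSBPL8 (r = 0.994). For IGFBP4 they were KANK4 (r = 0.999), the creatine transporter SLC6A8 (r = 0.998) and CPOX of heme synthesis (r = 0.998). For IGFBP3 they were SLC2A14 (r = 0.998), CLCN6 (r = 0.995) and CPOX (r = 0.993), of which SLC2A14 has a near-identical copy that can share its reads. Many others came close, since 380, 331 and 258 genes had an r of at least 0.95 with IGF1R, IGFBP4 and IGFBP3.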

How the data were processed

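Total RNA of 7 Huh-7 libraries was depleted of ribosomal RNA by the authors, who made directional libraries. The submitters' processing notes name Cutadapt 1.14, HISAT2 2.1.0, SAMtools 1.5, featureCounts 1.5.3, edgeR 3.18.1 and build hg38. Whether counting used strand is not given in the sources used here. The deposited values are FPKM per gene and library; the table's fold changes, p-values and FDR of the authors were not used. Values times gene length were whole multiples of 1 read for 100.0% of them. The tolerance was 0.01 of a read at low counts and widened in proportion at high counts, where the check says little. Scaling factors ran from 0.964 to 0.984 in siC and from 1.01 to 1.03 in siIGF2BP1, so they differed between the groups.

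Groups came from the sample titles. Genes averaging 1 FPKM or more were tested as log2(FPKM + 0.1) with limma 3.58.1 (R 4.3.3, mean-variance trend, two-sided, Benjamini-Hochberg over all genes, threshold 0.01), which understates changes of low genes. FPKM are no counts, so limma's voom on recovered reads took the place of a count test. The 95% intervals come from limma's spread between libraries, and the floor of 3 reads covers counting error only. The scripts were tested on simulated data. Ratios were compared by exact permutation. For libraries sharing a replicate number (1 to 3), deviations from the group means correlated at -0.118 to -0.026. Libraries of different numbers gave -0.169 to 0.201. Pairing was thus not seen, but deviations from means of so few libraries cannot exclude it. Other scalings, filters, pseudocounts, GC correction, array weights and left-out libraries were tried. The members and lists were chosen with earlier results of these data known, and 1 gene of the pathway lists is not reported here. Named were the members, ligands, other IGFBP genes, called pathway genes or, in lists without one, the gene of smallest p, and 3 genes most like each called member.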

Additional observations from a re-analysis of the deposited data

Results flagged for a closer look

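Of 26 sets of 4 siIGF2BP1 libraries examined for a library far from the others, 1 was past Dixon's 95% limit, where chance alone gives about 1.3. In the ratio of IRS1 to IRS2, siIGF2BP1 replicate 4 stood at 99.1 and the other 3 libraries at 79.2 to 82.6, so that its gap to the nearest was 0.8293 of the whole range. It had 23 reads of IRS2, the fewest of all libraries. Without it the log2 difference between the groups was 0.48 instead of 0.56.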

How the results depend on the processing

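Limits: calls at an adjusted p of 0.01 sat close to the threshold, and IRS2, IGFBP1 and IGFALS, below 1 FPKM, were tested only without a limit on low values. Over all genes 338 were lower and 245 higher. These numbers became 206 and 146 without a limit on low values, 1722 and 1022 with array weights, 603 and 396 with the GC trend removed, and 1010 and 703 at a threshold of 0.05. With protein-coding genes only, 511 were lower and 360 higher. Leaving out 1 library gave 53 to 988 lower and 66 to 533 higher, the highest numbers without siC replicate 3. The split moved to 287 lower and 261 higher with median centring and to 260 and 279 with quantile normalization.

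Of the 10 genes, 1 was lower and 2 higher. At a mean of at least 5 FPKM, where IGF1R and IGFBP3 drop out, 0 were lower and 1 higher, and 1 was higher without a limit on low values, where IGFBP3 missed the threshold (0.79, limma adjusted p = 0.0145). Left-out libraries gave 0 to 1 lower and 0 to 2 higher, with all 3 calls present only without siC replicate 3. The changes then ran from -0.92 to -0.76 for IGF1R, from 0.71 to 0.85 for IGFBP3 and from 0.44 to 0.49 for IGFBP4. They ran from -0.03 to 0.19 for IGF2R, 0.02 to 0.08 for INSR, -0.0092 to 0.072 for IRS1, -0.02 to 0.24 for IGFBP2, -0.53 to -0.32 for IRS2, 0.90 to 2.41 for IGFBP1 and -0.14 to 0.36 for IGFALS. The sign turned for IGF2R without siIGF2BP1 replicate 2 (-0.030), for IRS1 (-0.0092) and IGFBP2 (-0.023) without siC replicate 3, and for IGFALS without siC replicate 2 (-0.023) or siIGF2BP1 replicate 2 (-0.14). The cause was not tested.

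Pathway genes, 2 lower and 2 higher, became 1 and 0 without a limit on low values, 1 and 1 at 5 FPKM, 8 and 7 with array weights, 4 and 5 with the GC trend removed and 6 and 5 at 0.05. With protein-coding genes only or voom 4 were higher, and with quantile normalization or no trend 1 was lower. Left-out libraries gave 0 to 6 lower and 0 to 5 higher.

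With the replicate number as a block, 0 genes were called lower and 0 higher (limma), members and pathway genes included, also with the GC trend removed, and 2389 and 3108 genes had an unadjusted p below 0.05. The block drops siIGF2BP1 replicate 4, which has no partner. IGF1R was then -0.84 (limma adjusted p = 0.130, with GC removal 0.0800), IGFBP3 0.81 (0.158 and 0.0844), IGFBP4 0.47 (0.159) and, with GC removal, 0.51 (0.109), and IGF2BP1 -2.36 (0.0909) and, with GC removal, -2.37 (0.0581). No label says that the numbers pair the samples, and the correlations between libraries did not show a pairing but cannot exclude it.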
